A study of Mus musculus with 2 samples.

Results

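The mitochondrial ribosomal protein genes are the nuclear genes for the proteins of the ribosome that works inside mitochondria. They were taken as all protein-coding genes of the RefSeq table on GRCm38 whose symbol begins with Mrpl or Mrps followed by a digit. This gave 78 genes of 21887 protein-coding genes on the chromosomes used, 49 of the large subunit and 29 of the small subunit by name, spread over 17 chromosomes. Accessible chromatin of mouse GSCs, a cell type the labels give only by this abbreviation in a study of the male germline, had been profiled by ATAC-seq, which marks open DNA by transposase insertion. The line was Acrosin-EGFP; beta-Actin-EGFP (AAG) with the genotype Stag3 KO, and 50000 viable AAG-positive cells were sorted for each library. There were 2 libraries, replicate 1 and replicate 2, and both had the same genotype and no treatment in the labels. The Stag3 lesion, clonality and the origin of the libraries from separate cultures were not given in the labels. With no wild-type library analysed here, no value below is an effect of the knockout, and the spread between libraries may be technical.

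The mitochondrial ribosome translates the few proteins encoded by mitochondrial DNA, all of them membrane subunits of the oxidative phosphorylation complexes. Its RNAs are made in the mitochondrion, whereas its proteins are encoded in the nucleus, translated in the cytosol and imported. Many of these proteins descend from those of the bacterial ribosome, and others were added during the evolution of mitochondria. Their genes are used in nearly all cells. A few symbols do not match present knowledge of the complex: the products of Mrps30 and Mrps18a sit in the large subunit, and that of Mrps36 was later assigned to the oxoglutarate dehydrogenase complex.

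Replicate 1 held 107331 peaks and replicate 2 held 98986 peaks, and 83732 shared regions joined a replicate 1 peak to the replicate 2 peak that overlapped it most, by at least 1 bp. The fold enrichment of a peak is the authors' ratio of reads at its summit to the local background, with a median of 8.78 in replicate 1 and 8.73 in replicate 2. All 16 spermatogonial marker genes examined, among them Zbtb16, Gfra1, Ddx4 and Dazl, had a shared region within 1000 bp of the gene model. So did 5 of 6 Sertoli, 1 of 4 Leydig, 4 of 5 fibroblast and 7 of 8 blood and endothelial markers, where 75.7% of all protein-coding genes did. An accessible site near a gene does not show that it is expressed, so these counts neither establish nor exclude such cells, whose part in the results was not tested.

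Nearly every mitochondrial ribosomal protein gene had an accessible region in both libraries. Of the 78 genes, 75 (96.2%) had a shared region that reached the gene model or the 1000 bp on either side of it, whereas 75.7% of all protein-coding genes had one. The members were shorter genes, with a median length of 7690 bp against 17169 bp, so the stretch searched was shorter. The same count was 84 of 90 (93.3%) for the proteins of the cytosolic ribosome. By name, 47 of 49 genes of the large subunit and 28 of 29 of the small subunit had a region. Of the 45 genes for homologues of bacterial ribosomal proteins 44 had one, and of the 33 genes for mitochondrial additions 31 had one. These classes were set by symbol: Mrpl1 to Mrpl36, Mrps2 to Mrps21 and Mrps24 were taken as homologues and the rest as additions. The 3 members with no peak of either library in this window were Mrpl47, Mrpl53 and Mrps12. The members had been chosen by symbol, and the shares of genes are descriptions with no test.

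The region with the highest mean percentile of fold in the 2 libraries was taken as the best region of a gene. Over the 75 members with a region, the median fold of the best region was 18.8 in replicate 1 and 21.6 in replicate 2 (mean 20.2 ± 1.95, SD, n = 2). Over all protein-coding genes with a region it was 18.4 and 19.1 (mean 18.8 ± 0.462, SD, n = 2). The members had the higher median in both libraries, and the difference between the 2 means was smaller than the SD of the members' medians. That SD describes the shift between the libraries and does not measure the uncertainty of this difference. The best region lay above the median fold of its library in both libraries at 73 of 75 members, against 87.2% of all genes with a region. The lowest fold was 7.53 and the highest 32.6 in replicate 1, and 8.63 and 34.2 in replicate 2. Fold was higher in replicate 2 at 63 of the 75 members and at 10329 of the 16576 genes with a region. The number of tags stacked at the summit was recovered from the deposited fold and p-value. The median was 147 tags in replicate 1 (23 to 615 over the members) and 153 tags in replicate 2 (32 to 721).

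**Figure D1:**
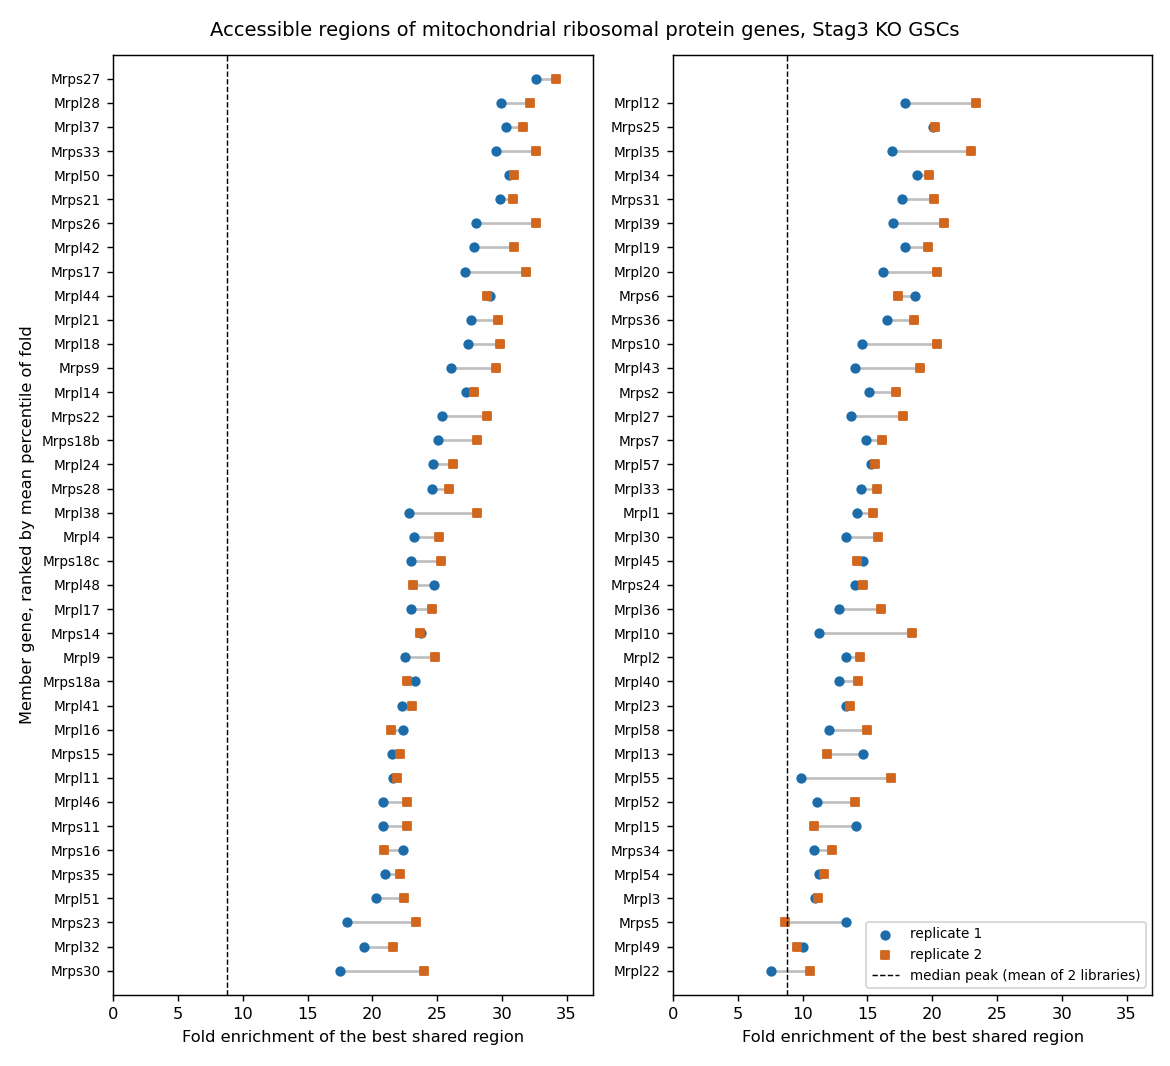
Fold enrichment of the best shared region (horizontal axis, linear) of each of the 75 members with one, ranked by mean percentile of fold, with circles for replicate 1, squares for replicate 2 and a line joining them. The dashed line is the median peak (mean of 8.78 and 8.73), and all but Mrps5 and Mrpl22 lie above the median of their library in both replicates.

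The promoters of the 5 members with the strongest regions are shown first, because the best region of all but Mrps27 lies on the start. They are the RefSeq sequences on GRCm38.p6 280 bases long, beginning 250 bases before the annotated start. Capitals mark the letters CCGGAAG, bound by ETS factors such as GABPA, GCATGCGC, the core bound by NRF1, and AAGATGGC, bound by YY1, on either strand. All 3 factors are known regulators of nuclear genes for mitochondrial proteins. The sequences are those of Mrps27 (chr13:99344536-99344815, plus strand), Mrpl28 (chr17:26123253-26123532, plus), Mrpl37 (chr4:107066837-107067116, minus), Mrps33 (chr6:39810907-39811186, minus) and Mrpl50 (chr4:49521054-49521333, minus).
Mrps27: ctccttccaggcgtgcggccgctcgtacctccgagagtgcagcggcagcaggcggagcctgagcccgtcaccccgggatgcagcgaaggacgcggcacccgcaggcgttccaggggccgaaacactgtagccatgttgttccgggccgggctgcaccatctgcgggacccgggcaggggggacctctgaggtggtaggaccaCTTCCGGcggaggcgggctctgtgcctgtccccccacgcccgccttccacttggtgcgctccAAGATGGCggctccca
Mrpl28: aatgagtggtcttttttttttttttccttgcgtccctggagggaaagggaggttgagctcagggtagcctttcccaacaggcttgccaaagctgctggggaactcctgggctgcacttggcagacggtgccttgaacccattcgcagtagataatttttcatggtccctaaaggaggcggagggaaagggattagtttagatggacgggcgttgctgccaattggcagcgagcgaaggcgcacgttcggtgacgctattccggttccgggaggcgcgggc
Mrpl37: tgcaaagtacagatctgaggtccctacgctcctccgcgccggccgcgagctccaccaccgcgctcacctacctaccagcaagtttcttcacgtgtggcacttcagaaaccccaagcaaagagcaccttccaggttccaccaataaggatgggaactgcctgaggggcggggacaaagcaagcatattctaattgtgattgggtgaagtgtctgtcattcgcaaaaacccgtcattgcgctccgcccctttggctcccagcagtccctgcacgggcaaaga
Mrps33: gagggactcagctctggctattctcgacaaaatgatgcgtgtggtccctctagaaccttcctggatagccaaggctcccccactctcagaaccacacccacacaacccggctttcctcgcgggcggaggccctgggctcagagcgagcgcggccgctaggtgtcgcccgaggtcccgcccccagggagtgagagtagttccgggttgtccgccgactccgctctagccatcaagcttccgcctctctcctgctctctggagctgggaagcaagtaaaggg
Mrpl50: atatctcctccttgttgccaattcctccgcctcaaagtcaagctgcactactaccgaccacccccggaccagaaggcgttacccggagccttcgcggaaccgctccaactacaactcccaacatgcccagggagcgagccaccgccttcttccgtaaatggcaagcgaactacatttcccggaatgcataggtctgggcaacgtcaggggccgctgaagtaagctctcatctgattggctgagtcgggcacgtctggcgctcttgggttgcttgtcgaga
Counting the start base as 0, the reverse of CCGGAAG began at -48 and AAGATGGC at 14 in Mrps27. The other sequences of this group hold none of the 3 motifs in the stretch printed. The AAGATGGC of Mrpl37 and the CCGGAAG of Mrps33 lie at the end of the 300-base promoter entry, beyond the stretch printed.

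Mrps27, whose product is an RNA-binding protein of the small subunit, had the highest fold. Its best region had folds of 32.6 in replicate 1 and 34.2 in replicate 2, on 392 and 445 tags. That region lay inside the gene at chr13:99353056-99353588, with its summit 8560 bp downstream of the start. The start itself had a second region of 25.7-fold and 26.5-fold, which also covered the start of Ptcd2, a gene for a mitochondrial RNA-processing protein read in the other direction from 108 bp away. Both regions were strong in both libraries.

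The next members had their best region on the start. Mrpl28 had folds of 29.95 and 32.1, Mrpl37 had 30.3 and 31.6, Mrps33 had 29.6 and 32.6, and Mrpl50 had 30.5 and 30.9. Their mean percentiles were between 98.1 and 98.3, so these sites stood among the strongest peaks of their libraries. Mrps21 followed with 29.9 and 30.8, Mrps26 with 28.004 and 32.7, Mrpl42 with 27.8 and 30.97, Mrps17 with 27.1 and 31.8, and Mrpl44 with 29.1 and 28.8. Mrpl44 is related to bacterial RNase III, and Mrps17 is the homologue of a bacterial small subunit protein. All of these 10 but Mrpl44 had the higher value in replicate 2.

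At the other end, the 10 lowest members had mean percentiles from 50.4 to 68.2. Mrpl22, one of the proteins lining the exit tunnel for the new peptide, had the lowest, with folds of 7.53 and 10.6 on only 23 and 32 tags. Its best region lay just beyond the far end of the gene at chr11:58179602-58179910, and its start had folds of 6.51 and 11.5. Mrpl49 had 10.1 and 9.55, and Mrps5, a small subunit protein at the messenger RNA entrance, had 13.4 and 8.63. Mrpl3 had 10.97 and 11.2 on 34 tags in each library. Mrpl54 had 11.3 and 11.7, Mrps34 had 10.8 and 12.3, and Mrpl15 had 14.1 and 10.9. Mrpl52 had 11.1 and 14.1, Mrpl55 had 9.88 and 16.9, and Mrpl13 had 14.6 and 11.9. These values were above the median peak of their library, except Mrpl22 in replicate 1 and Mrps5 in replicate 2.

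The folds of the members in the 2 libraries were correlated. Each best region had been chosen by its mean percentile over both libraries, so the 2 values were not picked independently. Across the 75 members log2 fold correlated between libraries with r = 0.91 and across 16576 genes with r = 0.90, and neighbouring members can share a region. The largest differences in log2 fold (replicate 2 minus replicate 1) were 0.77 at Mrpl55, 0.71 at Mrpl10, -0.63 at Mrps5, 0.49 at Mrpl22 and 0.48 at Mrps10. Mrpl10, which anchors the flexible stalk that recruits translation factors, had folds of 11.3 and 18.4 on 45 and 75 tags. Mrps10 had 14.6 and 20.3 on 82 and 104 tags. Mrpl55 rested on 31 and 59 tags. Of these 5 members only Mrps5 and Mrps10 had 100 tags or more in a library. The summits of the paired peaks lay within 100 bp of each other at 70 of 75 members. Paired peaks overlap by definition, and this was not counted over all genes.

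Genes of the large subunit had a median fold of 17.0 in replicate 1 and 20.4 in replicate 2, and genes of the small subunit had 21.2 and 22.7. Genes for homologues of bacterial proteins had 18.8 and 21.1, and genes for mitochondrial additions had 20.03 and 22.4. The small subunit had the higher median in both libraries, as did the additions. These gaps are descriptions over genes, which are not replicates. The classes follow the symbols, so Mrps30, Mrps18a and Mrps36 count with the small subunit, and Mrps36 also with the additions.

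Most members had their accessible region on the annotated transcription start. RefSeq starts were matched for 69 of the 78 members, and 65 of these (94.2%) had a shared region within 1000 bp of a start, against 65.9% of all protein-coding genes with a start. A region covered the start base itself at 64 of the 65, against 89.6% of all genes with a start region. The region with its summit nearest to the start is called the start region here. Its median fold was 17.6 in replicate 1 and 20.9 in replicate 2 (mean 19.3 ± 2.27, SD, n = 2), and 14.8 and 15.8 over all genes with one (mean 15.3 ± 0.719, SD, n = 2). The start region was also the best region at 51 of the 65 members with one and at 7444 of the 11521 genes with one. Among all genes with both a start and a shared region it was the best at 56.6%. Members with a region had a median of 1 shared region, against 2 over all genes with a region, so fewer regions competed.

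The summits of the start regions lay just upstream of the start. Their median position was -39 bp, with quartiles of -81 and -7 bp, and 52 of 65 (80%) lay upstream. Over all genes with a start region the median was -44 bp, the quartiles were -108 and 19 bp, and 70.0% lay upstream. The summit was within 150 bp of the start at 56 members (86.2%), against 70.1% of all such genes. The farthest were Mrps36 at 474 bp and Mrpl23 at 433 bp downstream, and Mrps10 at -317 bp, Mrps5 at -275 bp and Mrps7 at -257 bp. The 9 members without a matched start were Mrpl4, Mrpl13, Mrpl15, Mrpl19, Mrpl38, Mrpl54, Mrps28, Mrps34 and Mrps35. All 9 had a shared region, and at 7 of them the best region reached within 1000 bp of a gene end.

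**Figure D2:**
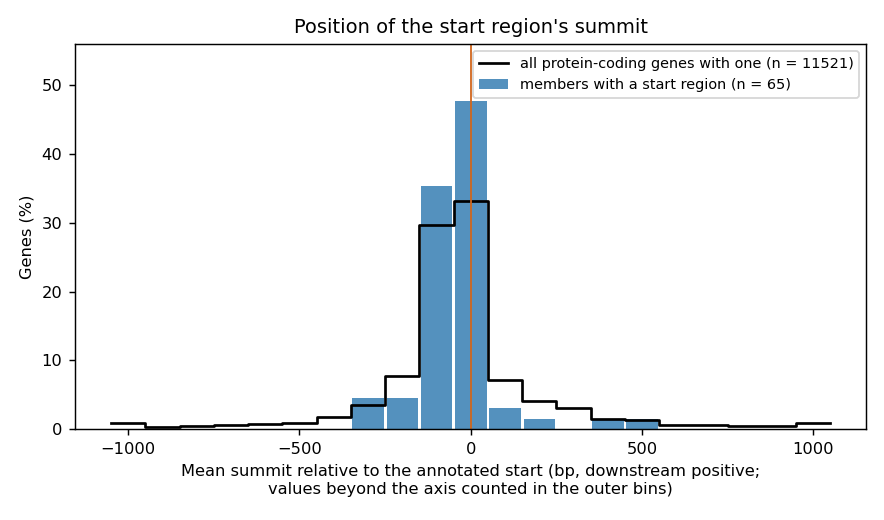
Position of the start region's summit, as the mean of both libraries, relative to the annotated start (horizontal axis, bp, downstream positive), as the percentage of 65 members (bars) and of 11521 protein-coding genes (black line) in bins of 100 bp. The members' bars gather around the start line, with a median of -39 bp.

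At 12 members with a matched start the best region lay more than 1000 bp from the start, and at 54 it reached within 1000 bp. This distance was not counted over all genes. Among all genes with a start and a shared region, the best region was the start region at 56.6%. Mrpl14, a large subunit protein at the interface of the subunits, had its best region 4334 bp downstream, with folds of 27.3 and 27.8. Its start had 2.16 and 2.14, with 47 and 51 tags over a local background of 21.2 and 23.3 tags. Mrps18b had 25.1 and 28.1 at its far end, in a region that also reached Atat1, the gene of the tubulin acetyltransferase. Its start region had 5.94 and 6.97, and a further region just upstream, at chr17:35916615-35917087, had 12.7 and 14.2. Mrpl48 had 24.8 and 23.1 inside the gene and 17.7 and 18.3 in its start region. Mrps6 had 18.7 and 17.4 at a site 30854 bp inside, and a start region of 7.71 and 11.3. All 4 of these members had a stronger site elsewhere than at the start in both libraries.

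Another 5 members of this kind had best regions of 8.63-fold to 17.2-fold. Mrps2 had 15.1 and 17.2 at the upstream end of its gene model, -1727 bp from its matched start, and 11.4 and 14.8 on that start. Mrpl36 had 12.8 and 16.0 over the upstream end of its own gene model, in a region that also reached the neighbouring gene Ndufs6. Its matched start lay inside the model and had 8.53 and 7.04. Mrpl2, next to the catalytic centre of the ribosome, had 13.3 and 14.4 beyond its far end near Cul7 and 5.50 and 4.97 at its start. Mrpl23 had 13.3 and 13.6 inside the gene and 7.31 and 7.75 near the start, and Mrps5 had 4.09 and 4.35 near its start. Mrps27, Mrpl22 and Mrpl49 complete the group. Mrpl20 was similar at a shorter distance, with 16.2 and 20.4 at 686 bp downstream and 5.52 and 5.59 on the start.

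Fold is relative to the background around a site, so a start beside a stronger site can have many tags and a modest fold. The start of Mrpl34 had 8.45 and 7.56 on 285 and 259 tags, with a background of 32.8 and 33.4 tags. Its best region, of 18.8 and 19.7 on 426 and 439 tags, lay 992 bp from the gene beside its neighbour Abhd8, just inside the 1000 bp limit. Mrps18b had 197 and 235 tags at its start over a background of 32.3 and 32.8. Mrpl3, in contrast, reached 10.97 and 11.2 with 34 tags over a background of 2.19 and 2.13. The best region of Mrpl22, on another chromosome, had the same 2 backgrounds, so these values need not be local to the site. An order by fold is therefore not an order by tags.

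The best regions of the members were of moderate width. Their median width was 646 bp in replicate 1 and 607 bp in replicate 2 (mean 627 ± 27.6, SD, n = 2), against 545 and 531 bp over all genes with a region (mean 538 ± 9.90, SD, n = 2). At the starts alone the medians were close, with 629 and 637 bp for the members and 638 and 621 bp for all genes with a start region. The quartiles of the members' best regions were 524 and 766 bp in replicate 1 and 516 and 762 bp in replicate 2. Both peaks were over 400 bp wide at 68 of 75 members. This was not counted over all genes with a region, where the mean of the 2 widths was 401 bp at percentile 24. Width and percentile of fold were weakly related across the members (r = 0.19 over 75 genes, with the width and fold of each gene from the same peaks).

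The widest was Mrps30, with 1171 and 1211 bp and folds of 17.5 and 24.004. Mrpl40, which shares its region with Hira, the gene of a histone chaperone, had 1342 and 848 bp and folds of 12.8 and 14.2. Mrpl32 had 980 and 988 bp, Mrps36 had 825 and 1033 bp, and Mrpl4 had 891 and 944 bp. The narrowest were Mrpl22 with 274 and 309 bp, Mrps5 with 319 and 270 bp, Mrpl49 with 311 and 292 bp, Mrps6 with 328 and 304 bp and Mrps17 with 398 and 438 bp. Of these 5, all but Mrps17 had their best region away from the start, and Mrps17 had it at -32 bp with 158 and 225 tags.

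**Figure D3:**
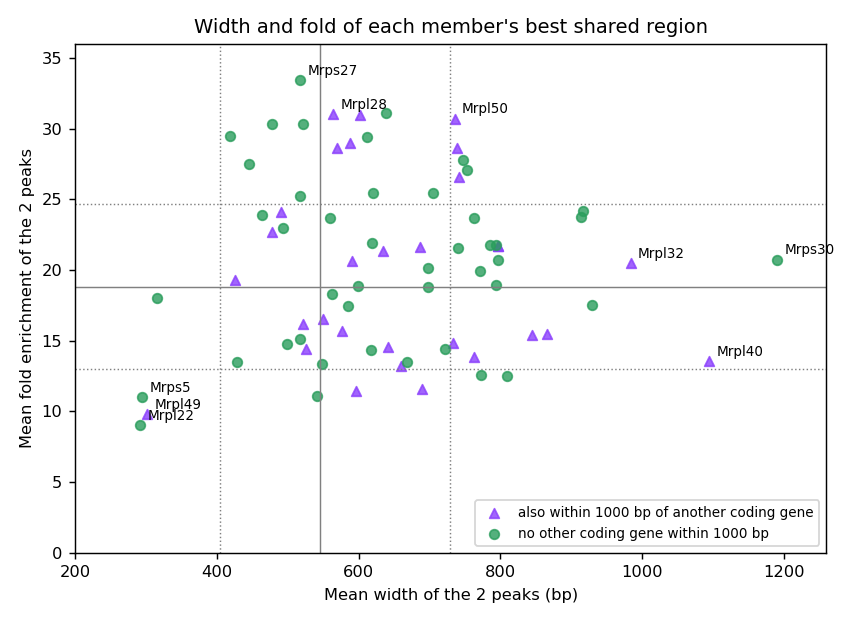
Mean width of the 2 peaks (bp) against their mean fold enrichment for the best region of each of the 75 members, with triangles for the 30 regions that also reached another coding gene. Solid and dotted lines are the median and quartiles over all protein-coding genes with a region. Mrps5, Mrpl49 and Mrpl22 lie apart at low width and fold, and Mrps30 and Mrpl40 are the widest.

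Many of the regions were shared with a neighbouring gene. At 30 of the 75 members (40%) the best region also lay within 1000 bp of another protein-coding gene, against 20.0% of all genes with a region. The share was 23 of 47 for the large subunit, 7 of 28 for the small subunit and 20 of 84 for the cytosolic ribosomal protein genes. Exactly 1 other gene was reached at 29 members, and Mrps34 reached Nme3 and Mapk8ip3. The folds were alike in both kinds: the medians were 18.4 and 20.3 for members with a neighbour in reach and 20.03 and 22.1 for those without. Peaks cannot say which of the genes a site serves.

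A divergent arrangement, in which the neighbour starts within 1000 bp on the opposite strand and is read away from the member, was frequent. Of the 69 members with a matched start, 24 (34.8%) had such a protein-coding neighbour, against 8.48% of all protein-coding genes with a start. In the cytosolic ribosomal list 9 of 69 (13.0%) had one. These counts come from the annotation and not from the peaks, and neighbours without a matched start are missed. Another 2 members, Mrps26 and Mrpl55, had a divergent long noncoding RNA. The distance between the 2 starts had a median of 136 bp and ran from 32 to 935 bp.

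A single shared region covered both starts at 16 of the 24 members, against 80.0% of all genes with such a neighbour. All 16 were among the 19 members whose starts lay at most 250 bp apart. The closest was Mrpl21 with Ighmbp2, a helicase gene, at 32 bp, with folds of 27.6 and 29.7. Mrpl27 lay 48 bp from Eme1, a subunit gene of a DNA repair nuclease (13.7 and 17.7), and Mrpl30 66 bp from Mitd1 (13.3 and 15.8). Mrpl57 lay 76 bp from the kinetochore gene Ska3 (15.3 and 15.5), and Mrpl50 93 bp from Zfp189. Mrpl43 lay 116 bp from Twnk, the gene of the helicase that copies mitochondrial DNA (14.1 and 19.1). Mrpl32 lay 205 bp from the proteasome gene Psma2 (19.4 and 21.6), and Mrpl18 238 bp from Tcp1, a subunit of the cytosolic chaperonin (27.4 and 29.9). The remaining neighbours were Mrps11 for Mrpl46, Mrpl46 for Mrps11, Ptcd2 for Mrps27, Hira for Mrpl40, Cyb5rl for Mrpl37, Klc4 for Mrpl2, Helq for Mrps18c and Gga3 for Mrps7. The neighbours had varied roles, in the nucleus, the cytosol and mitochondria.

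Mrpl46 and Mrps11 were the single pair of members with 1 region between them. Their starts lay 42 bp apart on chromosome 7, and the region at chr7:78782674-78783492 reached 20.8-fold on 123 tags in replicate 1 and 22.6-fold on 143 tags in replicate 2. Mrpl46 belongs to the large subunit and Mrps11 to the small subunit, so this site joins a gene of each. The 75 best regions were thus 74 separate sites. The windows of both promoters overlap and are printed because they hold this shared site (Mrpl46, chr7:78783060-78783339, minus strand, and Mrps11, chr7:78782881-78783160, plus strand).
Mrpl46: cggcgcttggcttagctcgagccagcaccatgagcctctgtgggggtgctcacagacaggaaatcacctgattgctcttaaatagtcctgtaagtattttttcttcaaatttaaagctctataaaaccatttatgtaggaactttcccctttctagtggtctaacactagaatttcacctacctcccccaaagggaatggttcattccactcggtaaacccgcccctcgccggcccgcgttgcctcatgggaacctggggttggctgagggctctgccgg
Mrps11: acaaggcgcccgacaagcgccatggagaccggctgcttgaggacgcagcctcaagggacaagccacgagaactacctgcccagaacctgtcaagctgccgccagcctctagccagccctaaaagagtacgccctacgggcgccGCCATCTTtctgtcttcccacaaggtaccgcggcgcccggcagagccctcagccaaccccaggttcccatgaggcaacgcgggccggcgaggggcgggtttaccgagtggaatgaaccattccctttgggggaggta
The reverse of AAGATGGC began at -107 in the Mrps11 window. These letters lie inside the Mrpl46 gene, downstream of its start and beyond the stretch printed for it. The Mrpl46 stretch itself holds none of the 3 motifs.

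The 8 divergent members without a common region fell into 2 kinds. At 5 of them the member had a start region that did not span both starts: Mrpl14 with Tmem63b at 131 bp, Mrps5 with Zfp661 at 332 bp, Mrpl51 with Ncapd2 at 614 bp, Mrps18b with Ppp1r10 at 756 bp and Mrpl41 with Pnpla7 at 935 bp. Ncapd2 encodes a subunit of condensin. For Mrpl51 the best region (20.3 and 22.4) lay at -495 bp from its start, and its own start region had 9.23 and 8.08. For Mrpl41 the best region lay on its own start with 22.3 and 23.04. At the other 3, Mrps12, Mrpl47 and Mrpl49, neither the member nor its neighbour had a region at the start.

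**Figure D4:**
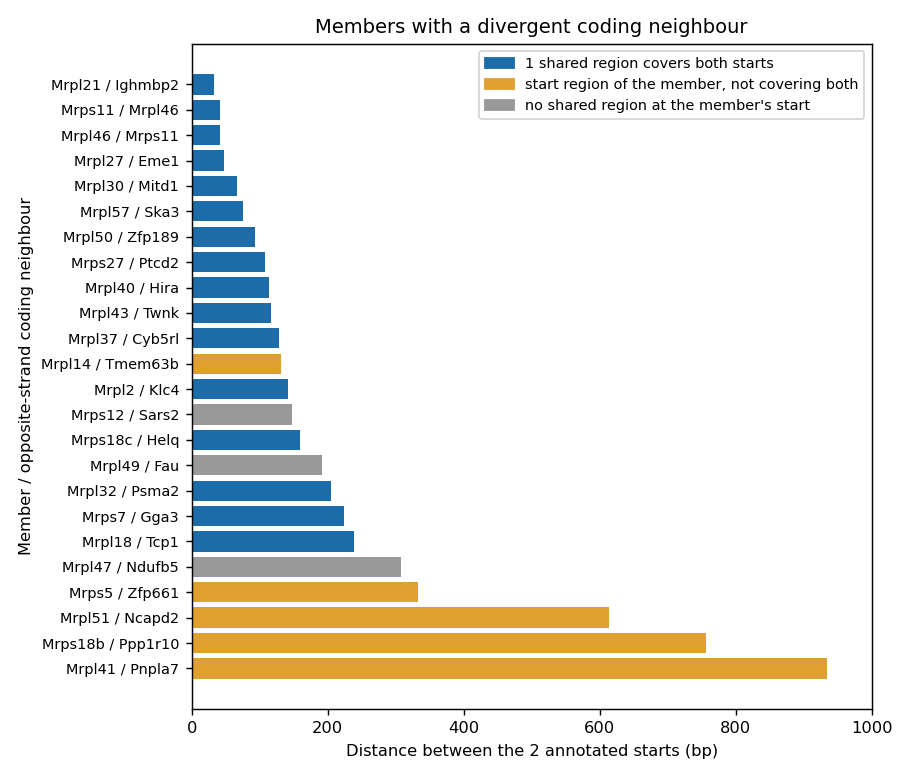
Distance between the annotated starts (bp) of the 24 members with a divergent coding neighbour, 1 bar per member, so that Mrpl46 and Mrps11 appear from both sides. Blue bars have 1 shared region over both starts, orange bars have a start region of the member that does not cover both starts, and grey bars (Mrps12, Mrpl49 and Mrpl47) have none.

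The members without a region at the start were few and mostly divergent. Of the 69 with a matched start 4 had none, and 3 of these 4 had a divergent coding neighbour. Among all genes with such a neighbour 95.1% had a region at the start. Mrpl47 lay 308 bp from Ndufb5, a subunit gene of complex I, and the nearest shared region was 18388 bp from the gene, at chr3:32708222-32709109, with folds of 27.8 and 27.2. Mrps12, the protein of the decoding centre, lay 147 bp from Sars2, the mitochondrial seryl-tRNA synthetase gene, and its nearest region was 3602 bp away with 4.97 and 4.83. Mrpl49 lay 192 bp from Fau, which encodes a protein of the cytosolic small subunit, and had only the region towards Syvn1 described above (10.1 and 9.55). Ndufb5, Sars2 and Fau themselves had no shared region within 1000 bp. Mrpl53 had its nearest region 1157 bp from the gene, with 14.4 and 13.8, just outside the window. No listed peak is not evidence of closed chromatin, and the cause was not tested.

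The promoters of the 3 members with no region are shown for comparison with the strong ones: Mrpl47 (chr3:32736726-32737005, minus strand), Mrpl53 (chr6:83108858-83109137, plus) and Mrps12 (chr7:28741792-28742071, minus).
Mrpl47: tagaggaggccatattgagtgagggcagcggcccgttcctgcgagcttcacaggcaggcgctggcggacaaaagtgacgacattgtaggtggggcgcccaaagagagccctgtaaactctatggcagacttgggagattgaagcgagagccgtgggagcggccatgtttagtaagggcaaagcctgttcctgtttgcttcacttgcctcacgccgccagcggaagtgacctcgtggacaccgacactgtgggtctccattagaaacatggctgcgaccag
Mrpl53: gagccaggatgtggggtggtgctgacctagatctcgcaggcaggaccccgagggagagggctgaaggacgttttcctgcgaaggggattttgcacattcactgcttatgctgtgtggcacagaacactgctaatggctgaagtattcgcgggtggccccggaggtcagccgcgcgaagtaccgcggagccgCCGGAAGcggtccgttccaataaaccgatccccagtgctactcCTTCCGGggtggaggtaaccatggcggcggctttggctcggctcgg
Mrps12: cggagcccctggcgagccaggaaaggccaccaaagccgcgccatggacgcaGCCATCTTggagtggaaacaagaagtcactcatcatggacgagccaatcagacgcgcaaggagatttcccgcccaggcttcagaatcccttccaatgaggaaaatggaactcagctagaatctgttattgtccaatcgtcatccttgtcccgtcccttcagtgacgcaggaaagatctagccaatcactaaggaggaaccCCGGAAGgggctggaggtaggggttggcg
Mrpl53 holds CCGGAAG at -59 and its reverse at -16, and Mrps12 holds CCGGAAG at 1 and the reverse of AAGATGGC at -199. The letters at -199 lie past the start of its divergent neighbour Sars2, which is 147 bp away. The stretch of Mrpl47 holds none of the 3 motifs.

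The motif letters were counted in the first listed 300-base promoter of each gene, on both strands. CCGGAAG stood in 25 of 69 members (36.2%), against 11.9% of 17492 protein-coding genes, and in 25 of 69 cytosolic ribosomal protein genes. AAGATGGC stood in 12 members (17.4%), against 3.22% of all and 5 cytosolic genes. GCATGCGC stood in 8 members (11.6%), against 3.61% of all and 2 cytosolic genes, and the longer full NRF1 palindrome, which contains it, in 3 members (4.35%) against 1.32%. At least 1 of CCGGAAG, GCATGCGC and AAGATGGC stood in 37 members (53.6%), against 17.3% of all genes. Of the 30 CCGGAAG matches in members 27 lay within 100 bp of the start, and so did 9 of 12 AAGATGGC matches and 10 of 14 GCATGCGC matches. A full NRF1 palindrome holds GCATGCGC on each strand and so counts as 2 of these matches. Positions were not counted over all genes, and the entries span only 250 bases before to 50 after the start. Nearness to the start is therefore not shown to be particular to the members.

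The remaining motifs, except the TATA box, stood at similar shares in members and all genes. CCAAT, bound by NFY, stood in 39.1% of members and 39.0% of all genes, and GGGCGG, bound by SP1, in 49.3% and 46.3%. TATAAA, the TATA box, stood in 4 members (5.80%) against 13.3% of all. TGACGTCA, the cyclic AMP response element, stood in 2.90% and 2.34%. Base composition differs between the sets and affects such counts: the median GC content was 58.3% in the members and 56.3% in all, with a median of 21 and 13 CpG dinucleotides per promoter. A match is only a run of letters and not a bound site.

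**Figure D5:**
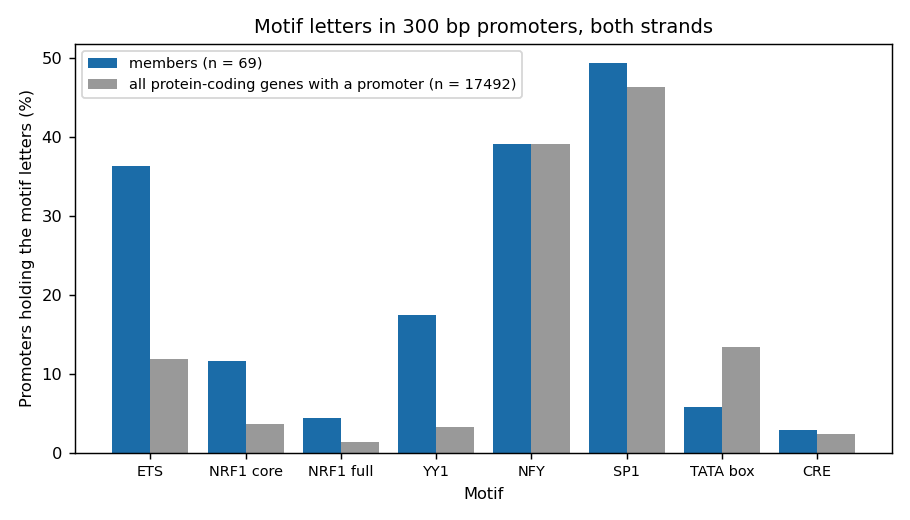
Percentage of promoters that hold each motif's letters on either strand, for the 69 members (blue) and all 17492 protein-coding genes with a promoter (grey). The ETS, NRF1 and YY1 bars are higher in the members (36.2%, 11.6% and 17.4% for the ETS, NRF1 core and YY1 letters), and the NFY and SP1 bars are nearly level.

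Genes that work with the mitochondrial ribosome also had an accessible region in nearly every case. Of 63 such genes listed, 62 were found under their symbol, and 61 had a shared region near the gene, with median folds of 19.2 in replicate 1 and 20.8 in replicate 2. The exception was Sars2, the divergent neighbour of Mrps12. All 5 ribosomal subunit genes with other symbols had a region: Aurkaip1 (21.5 and 24.6), Dap3 (19.8 and 12.8), Ptcd3 (14.8 and 14.8), Chchd1 (8.74 and 12.4) and Gadd45gip1 (9.57 and 9.84). All 21 genes of ribosome assembly and ribosomal RNA had one, among them the methyltransferase gene Tfb1m (25.0 and 24.5) and the assembly factor gene Malsu1 (27.7 and 26.8).

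All 15 translation factor genes found had a region, from Gfm2, which recycles ribosomes (25.4 and 28.1), and Gfm1, the elongation factor that moves the ribosome along (20.1 and 23.6), to Tsfm, the exchange factor of Tufm (5.33 and 3.17). Of 17 mitochondrial tRNA synthetase genes 16 had one, with Nars2 (29.0 and 29.0) and Tars2 (28.5 and 31.1) highest. All 4 genes of mitochondrial transcription had one: Polrmt, the RNA polymerase (28.3 and 31.1), Tfb2m (28.3 and 29.5), Tfam (22.7 and 24.3) and Tefm (11.1 and 13.3). The 61 of 62 genes with a region stand beside 75.7% of all protein-coding genes. At 21 of the 61 the best region also reached another coding gene, against 20.0% of all genes with a region.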

How the data were processed

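ATAC-seq peak lists of 2 Stag3 KO GSC libraries were used, 1 list per library. Per the submitters' processing notes, MACS2 2.1.1, Bowtie2 2.3.4.1, deepTools 3.5.0, bedtools 2.29.2, Picard 2.18.23 and Trim Galore were used, with builds mm10 and GRCm38.p3. Settings, the Tn5 shift and filters are not given in these sources and can move summits and decide which weak sites are listed. The deposited fold enrichment is the ratio of summit pileup to local background given by the authors' peak caller. The authors deposited −log10 p and −log10 q per peak, and a deposited score, 10 times −log10 q cut to a whole number, which was not used. Peak names ran without gaps.

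Read depth was not given, so tags at summits were recovered as whole numbers k from fold = (k + 1)/(background + 1) and the Poisson tail above k. Coordinates are 1-based. Genes came from RefSeq on GRCm38.p6, a patch release that shares its chromosome coordinates with mm10. Starts and promoters came from the RefSeq promoter table, which matched 69 of 78 members. Replicate 1 peaks with the same replicate 2 partner gave separate, overlapping regions. The cytosolic list is Rpl or Rps followed by a digit, Rplp0 to Rplp2 and Rpsa, without the S6 kinase genes and Rps19bp1. Named members were the 10 highest and 10 lowest by mean percentile, those with no region, the 5 widest, narrowest, most different and with most regions, those with a best region over 1000 bp from a start, and those sharing one. The members and lists were chosen with earlier results of these data known. No test was made, since there was 1 group. Scripts used Python 3.11.15, pandas 2.3.3 and scipy 1.17.1 and were tested on simulated data. Alternatives were a 50% reciprocal overlap, −log10 q of at least 5, the 50000 peaks of highest fold, windows of 500 and 2500 bp, gene ends only, and each library alone.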

Additional observations from a re-analysis of the deposited data

How the results depend on the processing

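Of 59 alternative values computed, 58 stayed within 1.5 times the reported count or within 1 SD of the reported median. These limits are wide: a count near the size of its list, such as 75 of 78, could leave them only by a large loss. The SD came from 2 libraries only. The exception was the median width of the best region in replicate 2, which moved from 607 to 668 bp when only windows around the gene ends were used. With a library left out, 75 members had a peak near the gene under either choice (75 to 75), and 65 had one at the start. The 50000 peaks of highest fold left 73 members with a region near the gene and 58 with one at the start. A window of 2500 bp gave 76 members, Mrpl53 among them, and 37 whose best region also reached a neighbour. No paired analysis was possible because the series held 1 group. Depth limits single values: Mrpl22 rested on 23 and 32 tags, and PCR copies are not independent molecules.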

Other observations

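Some members carried several accessible regions along the gene. The 75 members had 129 shared regions, where replicate 1 peaks with the same replicate 2 partner count apart although they overlap. On this count 42 of the members (56%) had a single region, against 33.7% of all genes with a region. The share was 61.9% for the cytosolic ribosomal protein genes with a region. Median gene length was 7690 bp for the members, 17169 bp for all genes and 3169.5 bp for the cytosolic list. The stretch searched thus differed between the lists. Mrpl15, Mrpl50 and Mrpl57 are not among the 42, since each had 2 overlapping regions of this kind. Mrps28, a small subunit gene whose model spans 121712 bp, had 7, with folds of 24.6 and 25.9 at the strongest, 21.04 and 24.1 at the next, and 4.70 and 8.00 at the weakest. Mrpl48 had 6, from 24.8 and 23.1 down to 3.60 and 3.02. Mrps6 had 5, of which the 3 weakest had folds of 4.70 to 9.16. Mrpl58, which codes for a peptidyl-tRNA hydrolase built into the ribosome, had 5, of which 2 were replicate 1 peaks with the same replicate 2 partner. Its start region had 12.05 and 14.9. Mrpl36 had 4, among them a pair of replicate 1 peaks with a single partner at its matched start. Whether the regions inside the long genes serve these genes was not tested.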
